A study of Mus musculus with 5 samples.

Results

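Accessible chromatin around 5 genes of insulin and growth factor signalling was followed through the first 2 h of induced neural differentiation: Akt1, Rictor, Igfbp4, Mxi1 and Myc. They were taken by symbol from a deposited table of short sites that it calls transcription start sites, and every row that carried 1 of the 5 symbols was used. This gave 59 of the 34714 sites and 5 of the 8034 gene symbols. The genes were picked after their values in these libraries were known, so all values below describe them and support nothing by test. The cells were C17.2, an established multipotent neural stem cell line of the mouse from CD1 x C57BL/6 stock, grown in DMEM/F12 with fetal bovine serum. Differentiation was induced by a change to Knockout DMEM with GlutaMAX and N2, a serum-free supplement that contains insulin. Nuclei were profiled by ATAC-seq, in which a transposase inserts adapters into open chromatin, at 0, 0.5, 1, 1.5 and 2 h after induction. The labels give all 5 times, of which the design text names the baseline, 1 h and 2 h. The 0 h cells were the control, there was 1 library per time, and all 5 libraries came from the same line.

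Insulin and insulin-like growth factors (IGFs) bind receptor tyrosine kinases that activate phosphoinositide 3-kinase (PI3K). Its lipid product brings the kinase Akt to the membrane, where Pdpk1 and the Rictor-containing mTOR complex 2 phosphorylate it. Akt then keeps FoxO transcription factors out of the nucleus and releases mTOR complex 1 from inhibition, so FoxO target genes are typically used when growth factors are short. Myc, which growth factors induce, works as a dimer with Max, and Mxi1 competes with it for Max. Igfbp4 acts upstream of all of these by binding IGFs outside the cell.

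Each library had a whole number from 0 to 10 at every site, read as the number of entries in that library's BED file of called intervals that lay over the site. An entry is not a read, and read depth was unknown, so no interval can be put on a single value. A site was called covered with 1 or more entries, and 0 entries means only that no interval was listed there. In time order (0, 0.5, 1, 1.5 and 2 h, the order of every list of 5 values below) the libraries totalled 42527, 56773, 45254, 65824 and 59437 entries. With 1 library per time no difference between times has a replicate check, and no p-value or SD exists for any of them. Of 8 measured neural progenitor markers, 4, 5, 4, 6 and 5 were covered in time order. Of all genes, 72.8, 76.6, 72.4, 79.3 and 78.3% were covered in the same libraries. Sox9 held 4 entries and Hes1 1 in every library. Cdh2 held 3, 7, 5, 7 and 5, and Msi2 3, 4, 2, 2 and 3. Notch1 held 0, 1, 0, 1 and 3, Nes 0 in all but the 1.5 h library, and Pax6 and Msi1 0 throughout. Of 3 measured neuron markers, Map2 held 2 entries in every library, Syp 1, 1, 0, 1 and 1, and Rbfox3 0 throughout. The astrocyte gene Slc1a2 held 0, 1, 0, 1 and 0. The 3 oligodendrocyte lineage markers were at 0 throughout, the microglial gene Cx3cr1 had 2 entries in every library at a site 56866 bp from its annotated 5′ end, and the mesenchymal gene Twist1 had 2, 3, 3, 6 and 4. The part of other cell types in the results was not tested.

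The sequences below are the RefSeq promoter windows (GRCm38.p6, 250 bases before to 50 after a transcript start) that hold listed sites of 4 genes, shown because the values at these sites are the subject of the results. For Mxi1 it is an inner start, away from the main site defined below, and another Mxi1 window that holds 4 listed sites is not printed. Capitals mark the bases of the listed sites, and each is written 5′ to 3′ on the strand of its gene. The Akt1 window is chr12:112674227-112674526 (minus strand), that of Rictor chr15:6708131-6708430, that of Igfbp4 chr11:99040994-99041293 and that of Mxi1 chr19:53329445-53329744 (all plus strand).
Akt1: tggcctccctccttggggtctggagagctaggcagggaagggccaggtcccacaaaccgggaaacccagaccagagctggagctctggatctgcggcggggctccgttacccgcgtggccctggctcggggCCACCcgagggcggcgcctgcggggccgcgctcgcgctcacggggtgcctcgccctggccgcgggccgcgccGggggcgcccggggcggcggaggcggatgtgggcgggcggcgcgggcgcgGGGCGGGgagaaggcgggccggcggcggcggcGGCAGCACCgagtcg
Rictor: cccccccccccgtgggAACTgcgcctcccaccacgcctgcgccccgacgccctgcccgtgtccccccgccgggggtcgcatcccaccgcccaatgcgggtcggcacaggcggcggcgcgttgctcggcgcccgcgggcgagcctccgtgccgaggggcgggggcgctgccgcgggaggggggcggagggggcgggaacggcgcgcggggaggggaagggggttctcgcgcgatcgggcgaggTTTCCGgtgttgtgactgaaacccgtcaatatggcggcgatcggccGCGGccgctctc
Igfbp4: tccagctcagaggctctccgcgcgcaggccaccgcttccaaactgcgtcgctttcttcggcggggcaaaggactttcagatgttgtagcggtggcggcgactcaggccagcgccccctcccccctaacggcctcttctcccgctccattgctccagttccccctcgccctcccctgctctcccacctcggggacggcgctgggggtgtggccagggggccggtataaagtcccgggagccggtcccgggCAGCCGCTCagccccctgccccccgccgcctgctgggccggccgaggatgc
Mxi1: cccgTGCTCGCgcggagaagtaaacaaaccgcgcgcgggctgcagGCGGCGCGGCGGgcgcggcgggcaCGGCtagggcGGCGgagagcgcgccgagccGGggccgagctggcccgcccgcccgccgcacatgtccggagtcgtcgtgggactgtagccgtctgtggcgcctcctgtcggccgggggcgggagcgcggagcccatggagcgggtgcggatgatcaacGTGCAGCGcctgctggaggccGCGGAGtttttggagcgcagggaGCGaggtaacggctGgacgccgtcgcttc

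The first capitals of the Akt1 window are the only Akt1 site that was covered in any library, and they begin 119 bases before the transcript start. In the Igfbp4 window the single listed site begins 1 base before the start and runs over it. The Rictor window holds 3 of that gene's 13 sites, and the Mxi1 window 10 of 25. The printed windows of Akt1, Rictor, Igfbp4 and Mxi1 had 79.7, 78.3, 71.3 and 75% G or C, against a median of 52.7% over 32851 mouse windows. The other windows of these genes were nearer that median, with 52.3% for Akt1 and 56.0 and 63.0% for Mxi1. No window of Myc was used here.

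The 5 genes had different profiles, and their values are given first at the main site of each gene, the site whose mean over the 5 libraries is highest. Akt1 had 0 entries at 1 and 2 h, against 5 at 0 h. Igfbp4 had 1 entry at 1, 1.5 and 2 h, against 5 at 0 h. Rictor had 7 at 2 h, against 2 at 0 h. Mxi1 was above its 0 h value in each later library and Myc stayed within 1 entry of it. On the log2(entries + 1) scale, which understates differences of low values, none of the 5 reached a 2-fold difference in the 0.5 h library, where 8.18% of all 8034 genes were 2-fold higher than in the 0 h library and 2.19% were 2-fold lower. At 1 h none was 2-fold higher (4.72% of all genes) and 2, Akt1 and Igfbp4, were 2-fold lower (4.99%). At 1.5 h Rictor was exactly 2-fold higher (11.4%) and Igfbp4 2-fold lower (1.83%). At 2 h Rictor was again higher (9.53%), and Akt1 and Igfbp4 were lower (3.49%). With differences of any size, the 0.5 h library was above that of 0 h for 3 of the 5 genes (28.1% of all genes) and below it for 1 (15.6%). The 1 h library was above it for 1 (20.6%) and below it for 3 (22.0%), and the 1.5 h library above it for 2 (31.3%) and below it for 2 (17.9%). At 2 h the numbers were again 2 (25.7%) and 2 (22.9%). Since the genes were chosen on these contrasts, nothing is read from these shares.

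**Figure D1:**
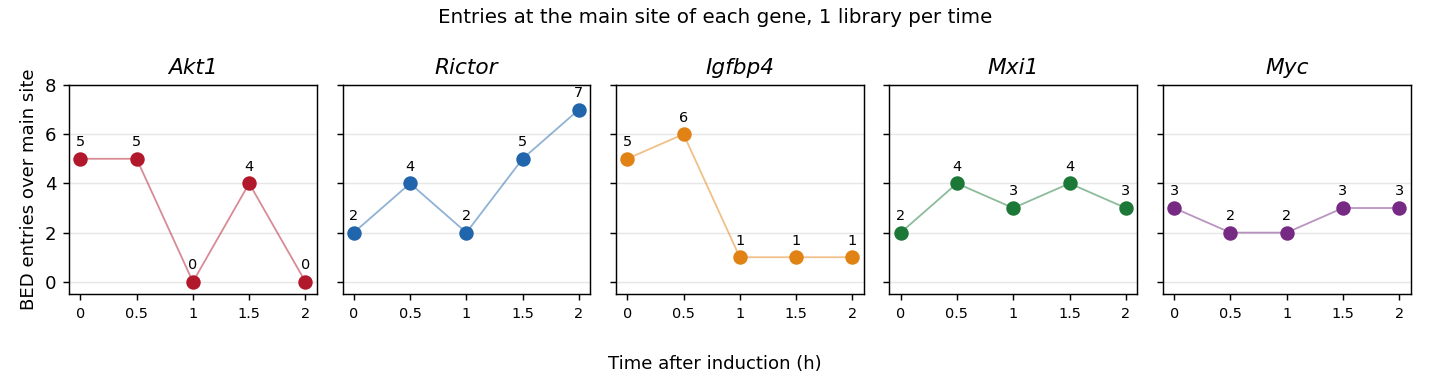
BED entries (y axis) at the main site of Akt1, Rictor, Igfbp4, Mxi1 and Myc against hours after induction (x axis), with 1 point per library and no error because each time has 1 library. Akt1 is at 0 at 1 and 2 h only, Igfbp4 is at 1 from 1 h on, and Rictor reaches 7 at 2 h.

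Igfbp4 encodes a secreted protein that binds IGFs and keeps them from their receptor. Its only listed site (chromosome 11, 99041243 to 99041251, GRCm38; ENSMUSG00000017493) lies over the transcript start shown above, 1242 bp inside the widest annotated gene. It held 5, 6, 1, 1 and 1 entries in time order. The 0 and 0.5 h libraries were thus high and the later 3 low, with no value between. The log2 ratio to 0 h was 0.22 at 0.5 h and −1.58 at each later time, and the small 0.5 h excess turned to −0.13 when libraries were scaled to a common total. At 0.5 h only 1.76% of genes had 6 or more entries. Igfbp4 was the single gene of 8034 with 5 or more entries at 0 and 0.5 h and 1 or fewer at every later time, a pattern written after its values were seen. Genes that, like Igfbp4 and Akt1, had 5 or more entries at 0 h were set beside it, also after seeing the values. Of these 354 genes, 25 had 1 entry or none at 1 h (7.06%), 4 at 1.5 h (1.13%) and 15 at 2 h (4.24%), and their median was 4 in every later library.

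Akt1 encodes the kinase at the centre of the pathway. The gene lies on the minus strand of chromosome 12 (112653821 to 112674884, ENSMUSG00000001729), and its 14 sites form a single group of 422 bp, 491 to 905 bp inside the 5′ end. Only the site nearest the 5′ end (112674391 to 112674395) was ever covered. Its values were 5, 5, 0, 4 and 0 entries. The 1 h and 2 h libraries were low and the 1.5 h library between them was near the 0 h value, so the values did not run one way with time. The other 13 sites were at 0 in every library, and the nearest of them is separated from the covered site by 67 bases. In the 0, 0.5 and 1.5 h libraries the covered stretch therefore ended within those 67 bases. Log2 ratios to the 0 h library were 0, −2.58, −0.26 and −2.58 in the later ones. With the mean over all 14 sites in place of the main site, the ratio was −0.44 at 1 and 2 h, short of 2-fold, because 13 sites were at 0 throughout. Of the 354 genes with 5 or more entries at 0 h, 11 were at 0 at 1 h (3.11%) and 5 were at 0 at 2 h (1.41%). Covered at 0, 0.5 and 1.5 h and uncovered at 1 and 2 h were 29 genes in all (0.361%), Akt1 among them. The 1 h library held fewer entries in total than any other later library but the 2 h library held more than that of 0.5 h, and the part of library size in the Akt1 values was not tested.

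Rictor encodes the subunit that defines mTOR complex 2, the kinase complex that phosphorylates Akt at its hydrophobic motif. Its 13 sites lie within 1081 bp on chromosome 15 (6707686 to 6708766, ENSMUSG00000050310), from −662 to 417 bp relative to the annotated 5′ end at 6708349. The main site (6708373 to 6708378), 26 bp inside that annotated end, held 2, 4, 2, 5 and 7 entries. The deposited labels place it on the opposite strand and 1 bp outside the gene. In the printed window it begins at −8 from the transcript start. The order of levels was 2 h, 1.5 h, 0.5 h, then 0 and 1 h at the same value, and with no replicates no neighbours in this order can be said to differ. Log2 ratios to the 0 h library were 0.74, 0, 1.00 and 1.41 in the later ones. With libraries scaled to a common total these became 0.44, −0.06, 0.53 and 1.06, so that of 1.5 h was no longer 2-fold. The 0.5, 1.5 and 2 h libraries, with the higher Rictor values, also held more entries in total than the 0 and 1 h libraries, and the part of this in the result was not tested. At 2 h 20 of 8034 genes (0.249%) had 7 or more entries. Of 2138 genes with 2 entries at 0 h, 3 reached 7 at 2 h (0.14%), and 99 had 5 or more at 1.5 h (4.63%).

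The rest of the Rictor sites showed how far the covered stretch reached. At 0 h 7 of 13 sites were covered, in separate runs of 20 bp with 1 entry and 299 bp with 2 entries. At 0.5 h all 13 were covered, with 2 entries over the 5 sites before the annotated 5′ end and 4 over the 8 sites after it. At 1 h 10 were covered, with 1 entry before that end and 2 after it, and the 3 innermost sites were at 0 as at 0 h. At 1.5 h and 2 h 1 value filled the whole stretch of 1081 bp, 5 entries at 1.5 h and 7 at 2 h. The 5 sites between −662 and −201 bp therefore stood at 7 at 2 h, against 0 or 1 at 0 h, a wider difference than at the main site. Runs of equal value over 2 or more sites had a median length of 186 bp over all libraries and genes. Of 20635 such runs, 50 were 1081 bp or longer (0.242%), the Rictor runs at 1.5 and 2 h among them. Run lengths are set by where sites were listed, so an interval may reach beyond its run. No share was taken among genes with sites listed over so long a stretch. Median run lengths over all genes were 173 bp with 2 entries, 286 bp with 5 and 252.5 bp with 7.

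**Figure D2:**
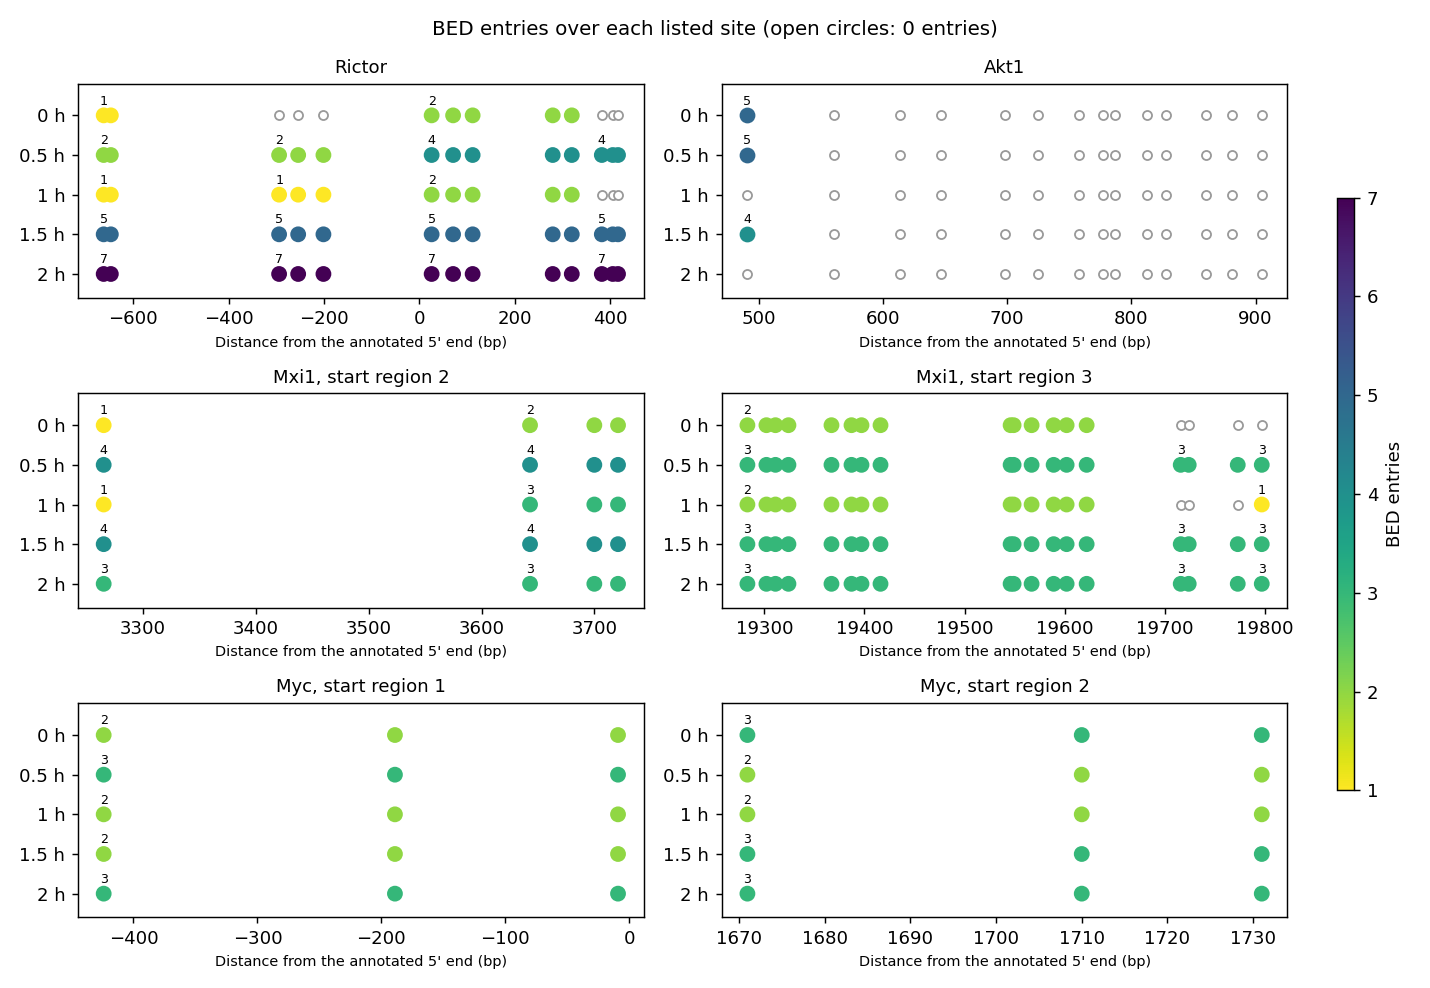
Every listed site of Rictor and Akt1 and the main start regions of Mxi1 and Myc, by distance from the annotated 5′ end in bp (x axis, positive inside the gene) and library (rows, 0 h at the top). Filled circles are coloured by BED entries and numbered once per group of sites with equal values, and open circles are sites at 0: the Rictor row is filled end to end with 5 at 1.5 h and with 7 at 2 h.

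Mxi1 encodes a member of the Mxd family that pairs with Max and brings the Sin3 corepressor to E-boxes that Myc and Max can also bind. Its 25 sites (chromosome 19, ENSMUSG00000025025) fell into 4 groups from 625 to 39243 bp inside the 5′ end, with a pair of alternative RefSeq starts among them. The main site (53313769 to 53313774, 3643 bp inside) held 2, 4, 3, 4 and 3 entries. All later libraries were above 0 h, with the 0.5 and 1.5 h libraries highest. Log2 ratios of the later libraries to 0 h were 0.74, 0.42, 0.74 and 0.42, and 0.44, 0.37, 0.27 and 0.07 after scaling. At 0.5 h 10.8% of genes had a ratio as high or higher, and at 1.5 h 14.1%.

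The group of 18 Mxi1 sites that begins 19283 bp inside the gene, part of which is printed above, held at most 3 entries at any site. Its 14 outer sites had 2, 3, 2, 3 and 3 entries. The 4 innermost sites held 0 at 0 h and 3 at each of 0.5, 1.5 and 2 h, while at 1 h 3 of them held 0 and the last held 1. The covered run was thus 520 bp at 0.5, 1.5 and 2 h and 345 bp at 0 and 1 h. In the group around the main site, a further site 374 bases before the others held 1, 4, 1, 4 and 3 entries. Of the sites nearest the 5′ end, that 625 bp inside held 0, 1, 1, 1 and 2 entries and that 707 bp inside 0 throughout. The site 39243 bp inside the gene was at 0 in every library.

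Myc encodes the transcription factor that drives growth and cell cycle genes. It had 6 sites in 2 groups on chromosome 15 (61984917 to 61985333 and 61987008 to 61987074, ENSMUSG00000022346), 3 of them between −424 and −9 bp from the 5′ end and 3 between 1671 and 1731 bp inside the gene. The inner sites, with the higher mean, had 3, 2, 2, 3 and 3 entries. Those before the gene had 2, 3, 2, 2 and 3. All 6 were covered in every library. The groups moved by 1 entry at most and in opposite directions at 0.5 h, so the direction for Myc at that time depends on which stands for the gene. Steps of this size were usual: of 1617 genes with 3 entries at 0 h, 90.0% were within 1 entry of that value at 0.5 h and 89.4% at 2 h.

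Over all 59 sites, 33, 44, 37, 44 and 43 were covered in time order. These are 55.9, 74.6, 62.7, 74.6 and 72.9% of the sites, where the whole table had 47.6, 58.7, 51.2, 66.9 and 65.7%. The 0 and 1 h libraries had the lowest shares in both. Rictor and Mxi1 held every site that was uncovered at 0 h and covered later, and Akt1 the only one covered at 0 h and uncovered later, while Igfbp4 and Myc had every site covered in every library. The sites are not independent, since the 59 fell into 9 groups with 16 distinct profiles. The nearest listed site of another gene was 4388 bp away for Akt1 and 17050 bp or more for the rest.

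**Figure D3:**
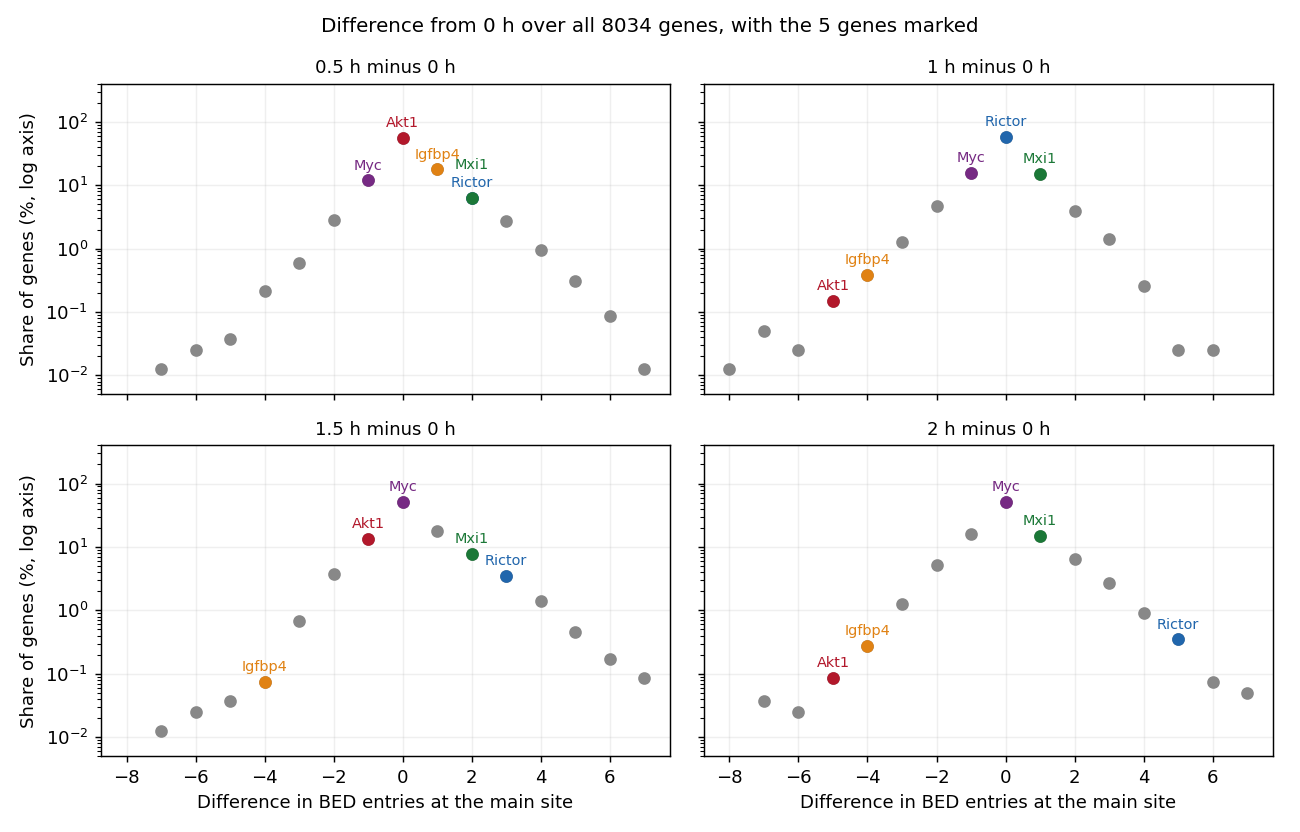
Share of the 8034 genes in percent (y axis, log scale) at each difference in main-site entries from 0 h (x axis), 1 panel per later time, with the points that hold Akt1, Rictor, Igfbp4, Mxi1 or Myc coloured and named. At 2 h Akt1 (−5), Igfbp4 (−4) and Rictor (5) lie in the tails while Myc (0) and Mxi1 (1) lie near the centre.

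Motifs were searched as exact letters on both strands of the 7 RefSeq windows of Akt1, Igfbp4, Mxi1 and Rictor. The FoxO core GTAAACA was found in 2 windows, where 3.65% of all 32851 windows hold it. In the Mxi1 window printed above it begins 231 bases before the start, between the first and the second listed site. In Akt1 it lies on the opposite strand, 161 bases before the outermost start, in another window than the 1 printed and with no listed site. The E-box CACGTG (7.15% of windows) and the AP-1 core TGANTCA (7.81%) were in none of the 7. The GC box GGGCGG (35.7%) occurred 5 times in the printed Akt1 window, 4 times each in those of Rictor and Mxi1, and not in that of Igfbp4. These are letter matches in short windows and say nothing of binding.

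Of 31 partners and paralogues of the 5 genes, 21 had listed sites and 10 had no site listed under their symbol. Of the 21, 16 were covered in all 5 libraries, where 69.0% of all 8034 genes were. Among IGF-binding proteins, Igfbp7 held 3 entries in every library and Igfbp2 0. Igfbp3 had 0, 2, 0, 1 and 2, which is not the Igfbp4 order. The IGF receptor gene Igf1r held 4, 3, 2, 5 and 4 entries. The paralogue Akt2 did not share the zeros of Akt1 and held 3, 2, 3, 2 and 3 entries. Of the FoxO factor genes, Foxo3 held 2 in each library and Foxo1 3 in all but the 1.5 h library, where it held 4. Pdpk1 held 1 entry at 0 h, then 3, 2, 3 and 2.

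Of the other mTOR complex 2 subunits, Prr5 had 0, 2, 2, 4 and 3 entries over a site that lies 18088 bp into the gene. Prr5l held 4, 3, 4, 4 and 4, and Mlst8, which both mTOR complexes share, held 2, 3, 2, 3 and 3. Rptor, the defining subunit of complex 1, held 0 at 0 h, then 2, 2, 3 and 3. The highest values of Rictor, Prr5 and Rptor were thus in the 1.5 h library, the 2 h library or both. Mlst8 and Prr5l also reached their highest values there, but in earlier libraries as well. The 1.5 and 2 h libraries held the most entries in total, and the share of all genes highest in them was not counted. In the Myc network, Mycn held 3, 3, 5, 3 and 2 entries, Mycl 3, 3, 2, 2 and 2, and Max 1, 1, 2, 2 and 1. Of the Mxd genes, Mxd1 held 1 in each library, Mxd3 4 in all but the 1 h library, where it held 3, and Mxd4 1 at 1.5 h and 0 otherwise. The corepressor gene Sin3a held 3 at 1 h and 2 otherwise.

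**Figure D4:**
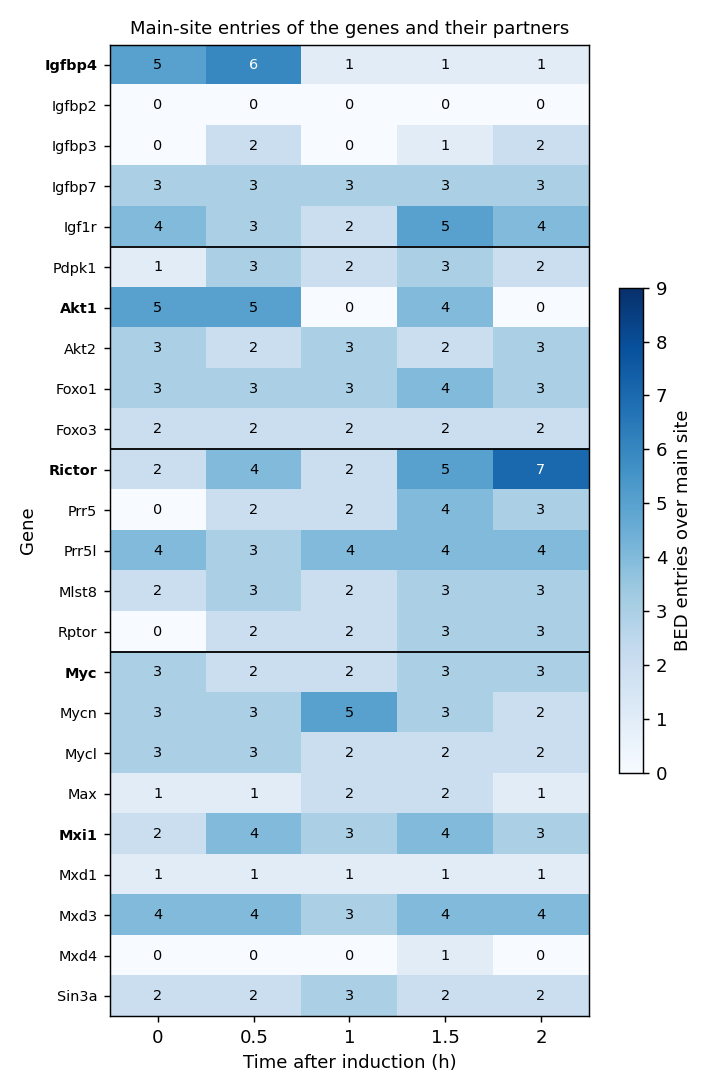
Main-site BED entries (numbers and colour) for the 5 genes, in bold, and the partners or paralogues described in the text (rows) at each time in hours (columns), grouped as IGF system, PI3K and Akt, mTOR complexes, and Myc network. Akt1, Igfbp4 and Rictor have the widest ranges, and Rptor and Prr5 have 3 or more entries at 1.5 h, against 0 at 0 h.

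Wider lists of the pathway, chosen with earlier results of these data known, held 144 measured genes, 119 of them covered in all 5 libraries, beside 69.0% of all genes. Relative to the 0 h library, 44, 32, 58 and 44 of them had more entries in the 0.5, 1, 1.5 and 2 h libraries, and 28, 40, 30 and 33 had fewer. Among the 6492 genes of the table covered in any library, 34.8, 25.5, 38.7 and 31.8% had more entries at these times and 19.3, 27.2, 22.1 and 28.4% fewer. Left out of the pool, the 5 genes leave 139, of which 56 had more and 28 had fewer in the 1.5 h library. The median log2 ratio of the 144 was 0 at every time, as it was for all genes. Scaling to a common total turned most equal values into lower ones, and in the 1.5 h library 30 of the 144 were then higher and 103 lower. Scaling acted alike on the table: of the 6492 genes covered in any library, 24.2% were then higher and 74.6% lower in the 1.5 h library. The scaled counts by list given below for that library are to be set beside these shares.

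Of 21 measured genes for insulin and IGF ligands, receptors, binding proteins and adaptors, 5 were higher and 4 lower in the 1.5 h library (3 and 13 after scaling), and 3 were higher and 6 lower in that of 1 h. Of the 21, 5 were covered in no library. The adaptor gene Grb2, which links receptors to Ras, held 1, 2, 2, 4 and 3 entries, and Grb10, which restrains insulin receptor signalling, held 2, 1, 0, 2 and 1. Of 27 PI3K, Akt and FoxO genes, all were covered at 0 h, as were 72.8% of all genes, and 11 were higher and 8 lower in the 1.5 h library (3 and 24 after scaling). Akt1 was the only one that became uncovered, at 1 and 2 h. Trib2, a pseudokinase that lowers FoxO activity, held 4, 4, 1, 5 and 4 entries, and Sgk3, an Akt-related kinase, held 2, 3, 2, 5 and 4. Of 26 mTOR genes, 12 were higher and 5 lower in the 1.5 h library (8 and 16 after scaling). Rps6kb1, the S6 kinase gene, held 2, 2, 0, 3 and 3, and Castor1, an arginine sensor of mTOR complex 1, was at 0 until 2 h, when it held 2.

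Of 22 measured targets of FoxO or of growth factor withdrawal, 12, 10, 14 and 11 were higher in the 0.5, 1, 1.5 and 2 h libraries than in that of 0 h, and 4, 5, 4 and 5 were lower. Of the 6492 genes covered in any library, 34.8, 25.5, 38.7 and 31.8% were higher and 19.3, 27.2, 22.1 and 28.4% lower. The median log2 ratio of the 22 was 0.32, 0, 0.37 and 0.13 at these times. It was 0 for all genes and for the 5544 covered in every library. Rictor and Mxi1, chosen on these values, are 2 of the 22, and both were higher in the 0.5, 1.5 and 2 h libraries. No count without them was taken. After scaling, 10, 10, 8 and 10 of the 22 were higher and 12, 11, 14 and 12 lower. Of the 6492 genes, 28.5, 25.4, 24.2 and 28.0% were then higher and 67.6, 68.2, 74.6 and 70.2% lower. With the site nearest the 5′ end and no scaling, 10, 8, 10 and 8 of the 22 were higher and 3, 5, 5 and 6 lower. The share of all genes higher or lower by that site choice was not counted, so nothing is read from these counts. The glucocorticoid and FoxO target Tsc22d3 held 0, 2, 1, 2 and 3 entries, the antiproliferative gene Btg1 held 0, 2, 0, 3 and 2, and Gadd45b, a stress gene, held 5, 3, 3, 1 and 3.

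Of 15 genes of the Myc, Max and Mxd network, 4 were higher and 2 lower in the 1.5 h library (3 and 11 after scaling). Usp28, a deubiquitinase that stabilises Myc, held 2, 4, 4, 3 and 2. All 13 measured Myc targets were covered in every library, as were 69.0% of all genes, and 3 were higher and 4 lower in that of 1.5 h (0 and 13 after scaling), while 2 were higher and 6 lower in that of 2 h. Gnl3, a nucleolar GTPase gene whose site lies near one of Pbrm1, held 5, 1, 1, 2 and 2. The spermidine synthase gene Srm held 3, 4, 2, 3 and 1, the nucleophosmin gene Npm1 4, 5, 5, 3 and 2, and Odc1, which makes putrescine, 2, 3, 2, 3 and 4. Of 28 genes of growth factor receptor kinases and the Ras-ERK pathway, 14 were higher and 5 lower in the 1.5 h library (9 and 16 after scaling), and 6 were higher and 8 lower in that of 1 h. Spred2, an inhibitor of Ras-ERK signalling, held 4, 3, 0, 4 and 4, the receptor feedback inhibitor gene Spry1 held 1, 2, 0, 4 and 2, and the receptor adaptor gene Frs2 4, 1, 2, 3 and 2.

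Likeness over the 5 libraries was measured as the sum of absolute differences in main-site entries from every gene over 1000 bp away. No gene came within 1 entry of the Akt1 profile, and the closest were Chd4, Jade2, Kdm5a and Tmcc2 at a distance of 2. Jade2, Kdm5a and Tmcc2 each held 4, 4, 0, 4 and 0 entries, and Chd4 held 5, 5, 2, 4 and 0. For Rictor the closest were Api5 with 2, 4, 2, 4 and 6 and Gm27322 with 2, 4, 2, 5 and 5, both at 2. For Igfbp4 no gene was within 3, and Ext2 and Ppara, each with 3, 4, 1, 1 and 1, and Slc49a4 with 4, 6, 3, 1 and 2 were at 4. The Mxi1 profile was held exactly by 4 others (Arhgap22, Dnajc21, Ehbp1 and Ero1l) and that of Myc by 25, of which A830035A12Rik, Adamts20, Cbx3 and Clptm1l come first in symbol order. Profiles of small whole numbers over 5 single libraries repeat often, and these matches are a description only.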

How the data were processed

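The authors' deposited table gives the position of 34714 sites, with gene symbol and Ensembl identifier for 33952, and 5 value columns, each named after a library's BED file per the file headers. Per the submitters' processing notes, Bowtie2, MACS2 and deepTools and the build GRCm38 (mm10) were used, in roles the notes do not give here. Not given in the sources used here are versions, read shift, duplicate handling, the peak threshold and the origin of the sites. The reading of values as BED entries is an inference: they are whole numbers, equal over runs of neighbouring sites, with steps to 0. Intervals stacked once per summit would give this, so a value may depend on how the caller split an interval.

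Symbols matched a GRCm38.p6 gene table for 7551 of 8034. The main site of a gene was that with the highest mean, the first by coordinate where tied. Sites at most 500 bp apart formed a group. Log2 ratios used a pseudocount of 1, and a 2-fold difference was called on that scale without a filter. Scripts ran in Python 3.11.15 with pandas 2.3.3. The count of 2-fold differences was checked on copied 0 h values in which known changes had been set. Distances and the reverse complement were checked on made-up input, and the other steps had no such check. Members and lists were chosen with earlier results of these data known. Named list genes were up to 4 per list with the largest absolute ratio, and named partners and paralogues. Some genes that this rule names are not reported here.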

Additional observations from a re-analysis of the deposited data

How the results depend on the processing

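No paired analysis was possible because each time has 1 library, and for the same reason no library could be left out of a time. At the main sites of the 5 genes no 2-fold difference changed sign under another site choice, scaling to a common total or a pseudocount of 0.5. Akt1 at 1 and 2 h fell short of 2-fold with the mean over all sites, and Rictor at 1.5 h did so after scaling. With the mean over all sites Rictor was also 2-fold higher at 0.5 h, and with the site nearest the 5′ end Mxi1 was 2-fold higher at each later time. That Mxi1 site held only 0, 1, 1, 1 and 2 entries, where a step from 0 to 1 entry counts as 2-fold. The 1 gene of the 5 with fewer entries at 0.5 h, Myc, became 3 genes after scaling and 0 with the mean over all sites, the highest site or the site nearest the 5′ end. The count of higher genes at 1 h, 1, became 2 with the mean over all sites. Scaling moved the median log2 ratio of the 5544 genes covered in all libraries by −0.29, −0.06, −0.42 and −0.33 at 0.5, 1, 1.5 and 2 h. It put 4.16, 5.55 and 5.19% of all genes at least 2-fold higher at 0.5, 1.5 and 2 h, and 3.42, 4.82 and 6.07% at least 2-fold lower. Of the pooled pathway genes, 97, 96, 103 and 91 were then lower at 0.5, 1, 1.5 and 2 h, and 30 were higher at 1.5 h. Of the 6492 genes covered in any library, 67.6, 68.2, 74.6 and 70.2% were then lower, and 24.2% were higher at 1.5 h. With genes at or above the median mean, 1.45% were 2-fold lower at 0.5 h. Merged into groups, 7, 8, 7, 8 and 7 of the 9 were covered from 0 to 2 h. The unknown depth limits all of these: the error of a single value cannot be given.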
